A study of Homo sapiens with 6 samples.

Results

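The 55 genes described here lie on the long arm of chromosome 21 on both sides of DYRK1A, and were chosen by name from the genes of that chromosome. Of the 55, 54 were found in the spike-in normalized table, which holds 23026 genes in all and 281 of chromosome 21, and 53 passed the filter on expression (a mean normalized count above 10 CPM). T98G, a human glioblastoma cell line, was infected with a lentivirus that carried either a control hairpin (shControl) or a hairpin against DYRK1A (shDYRK1A), selected with puromycin and left to recover without it. Polyadenylated RNA was sequenced in 3 libraries of each condition, named 1A, 1B and 1C, after equal numbers of T98G cells had been combined with a constant number of fly Kc167 cells. The labels name 1 hairpin condition against DYRK1A, and they do not say whether the libraries of a group came from separate infections, so that the p-values measure the spread between these libraries.

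Chromosome 21 is the smallest human autosome, and an extra copy of it causes Down syndrome. DYRK1A, a kinase that phosphorylates serine, threonine and, in itself, tyrosine, lies in its distal part and is sensitive to gene dosage, since loss of one copy causes an intellectual disability syndrome with microcephaly. Its neighbours are a mixed group that share a chromosome rather than a pathway. They include APP (the amyloid precursor), SOD1 (the cytosolic superoxide dismutase), the receptors of type I and type II interferon, a cluster of nucleolar proteins, and the transcription factors ETS2, RUNX1, BACH1 and GABPA. DYRK1A is also found on chromatin, at promoters that carry the palindrome TCTCGCGAGA, whereas GABP, of which GABPA is the DNA-binding subunit, recognises the ETS site CCGGAAGT.

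Gene counts summed to between 33708297 and 42154438 per library, and the constants derived by the authors from the fly reads ran from 0.821 to 1.03 in shControl and from 1.06 to 1.21 in shDYRK1A. Unmapped reads made up 8.44 to 10.69% of the reads in shControl and 10.85 to 15.65% in shDYRK1A. On the spike-in scale the median log2 fold change of the 9697 genes tested was -0.40, whereas scaling by the human genes themselves (trimmed mean of M values, TMM) brought it to 0.00. Changes below are therefore given on both scales for most genes. Those given on the spike-in scale alone are to be read against that shift. A lower count per fly read can come from less RNA per T98G cell or from fewer T98G cells per fly cell, and these cannot be told apart in these bulk libraries. The 9 glioma and mesenchymal markers summed to 4420 to 4470 CPM in shControl and 3930 to 4110 CPM in shDYRK1A. VIM was at 1890 to 1970 CPM in shControl and 1530 to 1630 in shDYRK1A, and FN1 at 823 to 923 and 613 to 738, whereas CD44 was at 1400 to 1540 and 1540 to 1590 and EGFR at 144 to 154 and 132 to 157. CHI3L1 was higher in shDYRK1A, at 3.54 to 4.78 CPM in shControl and 13.1 to 13.8 in shDYRK1A. NES and OLIG2 did not exceed 2.02 CPM in any library, and the glial and stem cell markers GFAP and SOX2 did not exceed 0.0949 CPM. The summed level of 4 neuronal markers, which included MAP2, was 45.9 to 48.0 CPM in shControl and 19.2 to 24.7 CPM in shDYRK1A, with RBFOX3 at 0 to 0.0253 CPM. The 3 epithelial markers, of which KRT8 held most of the counts, summed to 20.2 to 22.1 CPM in shControl and 30.3 to 34.3 CPM in shDYRK1A. Leukocyte and endothelial markers did not exceed a sum of 2.09 CPM. The part of these shifts and of the unmapped reads in the results below was not tested.

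The promoters of 44 of the 54 genes could be matched by symbol to RefSeq (GRCh38.p14, 250 bases before to 50 after the start site). Of these 4 are shown, because they hold the first 8 bases of the DYRK1A-associated palindrome (CCT8), its central bases at the listed gene nearest to DYRK1A (TTC3), or the GABP site, at the gene of its own DNA-binding subunit and at a gene that was not called lower (GABPA and YBEY). Capitals mark the match, and in GABPA and YBEY it lies on the opposite strand. The windows are chr21:29073599-29073898 on the minus strand for CCT8, chr21:37073004-37073303 on the plus strand for TTC3, chr21:25734722-25735021 on the plus strand for GABPA and chr21:46286092-46286391 on the plus strand for YBEY.
CCT8: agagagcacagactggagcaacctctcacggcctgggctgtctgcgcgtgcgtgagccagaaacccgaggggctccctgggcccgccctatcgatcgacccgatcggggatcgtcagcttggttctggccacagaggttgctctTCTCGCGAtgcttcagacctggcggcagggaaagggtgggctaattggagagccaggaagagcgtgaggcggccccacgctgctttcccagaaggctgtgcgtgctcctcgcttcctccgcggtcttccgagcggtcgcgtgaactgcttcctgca
TTC3: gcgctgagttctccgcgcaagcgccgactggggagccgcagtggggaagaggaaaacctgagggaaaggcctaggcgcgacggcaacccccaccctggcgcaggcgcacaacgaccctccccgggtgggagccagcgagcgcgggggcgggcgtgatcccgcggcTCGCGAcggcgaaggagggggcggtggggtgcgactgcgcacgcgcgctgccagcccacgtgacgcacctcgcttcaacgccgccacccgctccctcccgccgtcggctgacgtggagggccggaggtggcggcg
GABPA: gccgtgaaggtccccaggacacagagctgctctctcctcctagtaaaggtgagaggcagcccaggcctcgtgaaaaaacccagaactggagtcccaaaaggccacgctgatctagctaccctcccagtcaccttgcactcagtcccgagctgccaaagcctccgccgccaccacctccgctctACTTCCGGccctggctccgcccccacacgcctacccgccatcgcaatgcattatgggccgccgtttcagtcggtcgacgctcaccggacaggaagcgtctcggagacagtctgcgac
YBEY: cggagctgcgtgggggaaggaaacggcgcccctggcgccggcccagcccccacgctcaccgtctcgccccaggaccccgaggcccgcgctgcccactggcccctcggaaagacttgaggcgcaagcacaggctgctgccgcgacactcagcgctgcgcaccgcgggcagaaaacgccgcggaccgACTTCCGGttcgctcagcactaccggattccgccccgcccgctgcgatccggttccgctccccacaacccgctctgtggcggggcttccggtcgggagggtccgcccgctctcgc

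The full palindrome TCTCGCGAGA was in none of the 44 promoters, in 0.424% of all 35116 RefSeq promoters and in 1.16% of the promoters of the 7594 tested genes that had one. The first 8 bases, TCTCGCGA, were in that of CCT8 alone (2.27% of the 44), 106 bases before the start site, in 1.15% of all promoters and in 3.27% of those of tested genes. The central bases TCGCGA, searched on both strands and contained in the longer forms, were in the promoters of CCT8, CRYZL1, PIGP and TTC3 (9.09% of the 44), in 3.12% of all promoters and in 7.91% of those of tested genes. These 4 genes had log2 fold changes of -0.79, -0.60, -0.38 and -0.57 on the spike-in scale. The GABP site CCGGAAGT was in 10 of the 44 promoters (22.7%), in 4.14% of all promoters and in 11.5% of those of tested genes. Its carriers were GABPA, GART, LTN1, MORC3, POFUT2, PTTG1IP, PWP2, TRAPPC10, USP16 and YBEY. The median log2 fold change was -0.45 over the 9 carriers tested and -0.46 over the 34 other tested genes with a promoter sequence. A match of letters is a description of the window and says nothing of binding.

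DYRK1A itself, the target of the hairpin (ENSG00000157540, GRCh38 chr21:37365790-37517450 in the deposited table, plus strand), stood at 2227, 2234 and 1895 normalized counts in shControl and at 1482, 1056 and 1285 in shDYRK1A, in the order 1A, 1B and 1C that is kept throughout. No shDYRK1A library reached the lowest control. On the log2 scale it fell by 0.73, with a standard error (SE) of 0.15 (edgeR's quasi-likelihood test, adjusted p = 5.33e-06, as all p-values below adjusted over the genes tested), and with TMM scaling by 0.34 (edgeR, adjusted p = 0.000591). The distances below are from its start, with the centromere side negative.

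Most of the genes around DYRK1A were lower in shDYRK1A on the spike-in scale, and none was called higher. Of the 53 tested, 43 (81.1%) fell with an adjusted p below 0.05 in edgeR, beside 63.4% of all genes tested, and 0 rose, beside 1.08% of all genes. The DESeq2 Wald test called 45 lower and 0 higher, and the share of all genes under that test is not given here. In 36 of the 53 (67.9%) every shDYRK1A library was below every shControl library, beside 63.6% of all genes. The median of the 53 was -0.45, against -0.40 for all genes tested, with 31 genes below that value and 22 above it. With the further condition of a log2 fold change below -0.7, 6 genes were called lower (11.3%, beside 14.3% of all genes): ETS2, DONSON, GABPA, RRP1B, CCT8 and BACH1. None passed the corresponding threshold for a rise, which 0.278% of all genes did. All fold changes but that of ADAMTS1 were negative.

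Relative to the bulk of the transcriptome, listed genes were called in both directions, as were all genes tested. With TMM scaling 17 fell (32.1%, beside 28.6% of all genes tested) and 10 rose (18.9%, beside 27.3%), and the median was -0.04. The 17 that fell were also lower on the spike-in scale: GABPA, LTN1, CCT8, BACH1, URB1, SYNJ1, IFNAR2, IFNAR1, GART, DONSON, CRYZL1, TTC3, ETS2, PSMG1, BRWD1, C2CD2 and RRP1B. Of the 10 that rose, APP and PTTG1IP were called lower on the spike-in scale and 8 were not called there, namely ADAMTS1, RWDD2B, PRDM15, AGPAT3, TRAPPC10, POFUT2, YBEY and PRMT2. Only CBR3 and CSTB were called on neither scale. The standard error of a fold change had a median of 0.14 over the 53 genes on the spike-in scale and 0.06 with TMM scaling.

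**Figure D1:**
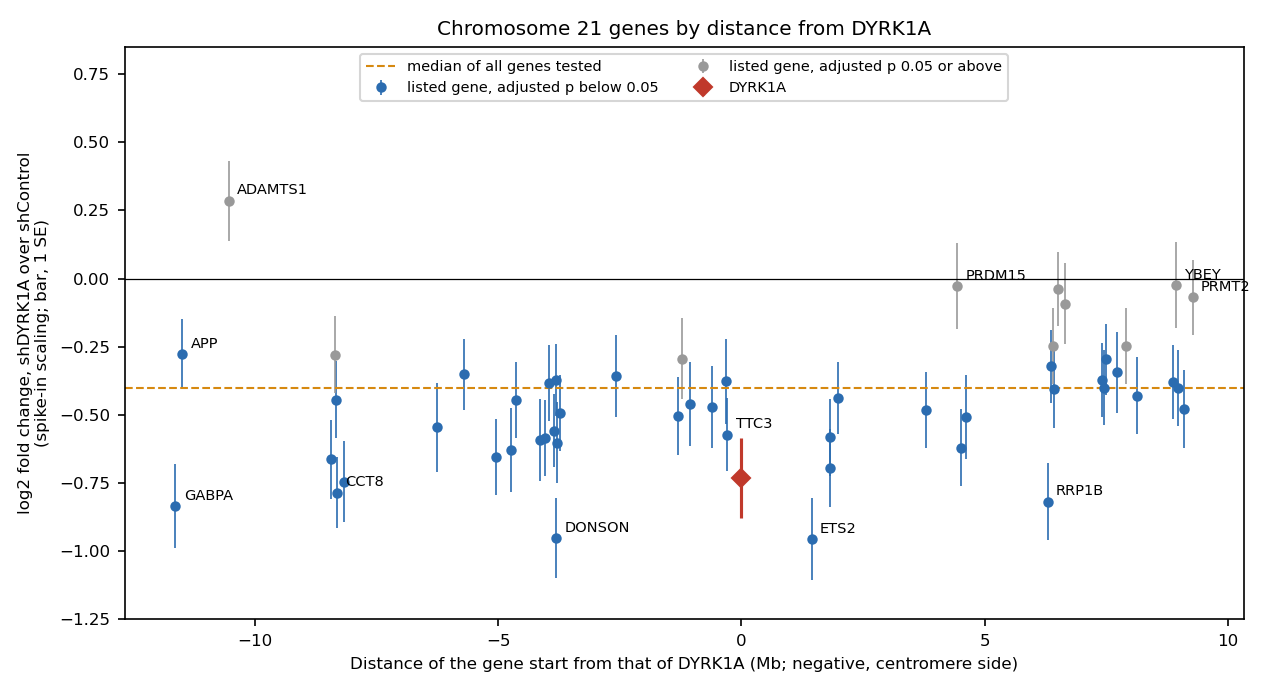
Log2 fold change on the spike-in scale (y axis, shDYRK1A over shControl, bars 1 SE) of the 53 tested genes and DYRK1A against the distance of their starts from that of DYRK1A (x axis, Mb, centromere side negative), with the median of all genes tested as a dashed line. ETS2 (-0.96) and DONSON (-0.95) were the lowest, ADAMTS1 (0.29) was the only gene above 0, and 12 of the 17 genes beyond 6 Mb on the telomere side lay above the dashed line.

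The lowest values were held by genes of unrelated function. ETS2, an ETS family transcription factor (ENSG00000157557, chr21:38805307-38824955, plus strand), had 2267, 2165 and 1830 normalized counts in shControl and 1204, 911.7 and 1110 in shDYRK1A. The groups were far apart, and the log2 fold change was -0.96 with an SE of 0.15 (edgeR, adjusted p = 3.33e-09) on the spike-in scale and -0.55 with TMM scaling (edgeR, adjusted p = 1.1e-05). DONSON, a component of the replication fork (ENSG00000159147, chr21:33559542-33588708, minus strand), had 2699, 2464 and 2095 normalized counts in shControl. In shDYRK1A it had 1408, 1114 and 1229, again with no overlap. Its fold change was almost as large as that of ETS2, at -0.95 with an SE of 0.15 (edgeR, adjusted p = 1.9e-09) and -0.55 with TMM scaling (edgeR, adjusted p = 8.78e-06).

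GABPA (ENSG00000154727, chr21:25734570-25772460, plus strand), the most distant of the listed genes from DYRK1A, showed 1368, 1302 and 1061 normalized counts in shControl and 775.1, 540.1 and 772.6 in shDYRK1A. All 3 shDYRK1A libraries were below the lowest shControl library, and shDYRK1A 1B was the lowest. The log2 fold change was -0.84 with an SE of 0.15 (edgeR, adjusted p = 7.08e-07), and -0.43 with TMM scaling. RRP1B, a nucleolar protein that takes part in ribosome assembly (ENSG00000160208, chr21:43659548-43696079, plus strand), had 4489, 4188 and 3744 normalized counts in shControl and 2612, 1959 and 2469 in shDYRK1A. It was the one listed gene beyond 6 Mb on the telomere side to fall past the threshold of -0.7, with -0.82 and an SE of 0.14 (edgeR, adjusted p = 9.78e-08). CCT8, a subunit of the cytosolic chaperonin (ENSG00000156261, chr21:29055805-29073797, minus strand), had 27647, 26069 and 22064 normalized counts in shControl. In shDYRK1A it had 15826, 13648 and 14467, no library of which came near the controls. Its log2 fold change was -0.79 with an SE of 0.13 (edgeR, adjusted p = 2.92e-08), and -0.38 with TMM scaling.

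The listed genes closest to DYRK1A fell by varying amounts. On the centromere side the nearest of the listed genes was TTC3, a ubiquitin ligase (ENSG00000182670, chr21:37073226-37203112, plus strand, 0.29 Mb away). It had 12203, 12358 and 10748 normalized counts in shControl and 8779, 6637 and 8315 in shDYRK1A. It was lower on both scales, by -0.57 with an SE of 0.13 (edgeR, adjusted p = 7.97e-05) and by -0.18 with TMM scaling (edgeR, adjusted p = 0.0116). PIGP, which acts in the synthesis of glycosylphosphatidylinositol anchors (ENSG00000185808, chr21:37059170-37073170, minus strand), starts 56 bp from TTC3 on the opposite strand and had 1107, 1094 and 842.2 normalized counts in shControl and 913.1, 690.2 and 737.2 in shDYRK1A. Here shControl 1C was below shDYRK1A 1A, and the fold change of -0.38 with an SE of 0.15 (edgeR, adjusted p = 0.0249) came to 0.03 with TMM scaling (edgeR, adjusted p = 0.761). HLCS, the ligase that attaches biotin to carboxylases (ENSG00000159267, chr21:36750888-36990236, minus strand), had 1601, 1475 and 1354 normalized counts in shControl and 1205, 918.2 and 1070 in shDYRK1A. The groups did not overlap, and the log2 fold changes were -0.47 (edgeR, adjusted p = 0.00428) and -0.07 with TMM scaling (edgeR, adjusted p = 0.31).

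On the telomere side ETS2, 1.44 Mb away, was the nearest of the listed genes and has been described above. PSMG1, a chaperone of proteasome assembly (ENSG00000183527, chr21:39174769-39183851, minus strand), had 4218, 4052 and 3386 normalized counts in shControl and 2809, 2406 and 2564 in shDYRK1A. BRWD1, a reader of acetylated chromatin (ENSG00000185658, chr21:39184176-39321559, minus strand), had 3018, 2895 and 2442 in shControl and 1938, 1477 and 1742 in shDYRK1A. Both were lower in every shDYRK1A library. PSMG1 changed by -0.58 with an SE of 0.14 (edgeR, adjusted p = 0.000146) and BRWD1 by -0.70 with an SE of 0.14 (edgeR, adjusted p = 9.2e-06), and with TMM scaling by -0.18 and -0.29. HMGN1, a nucleosome-binding protein 1.98 Mb away, had log2 fold changes of -0.44 (edgeR, adjusted p = 0.0023) and of -0.04 with TMM scaling (edgeR, adjusted p = 0.539).

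**Figure D2:**
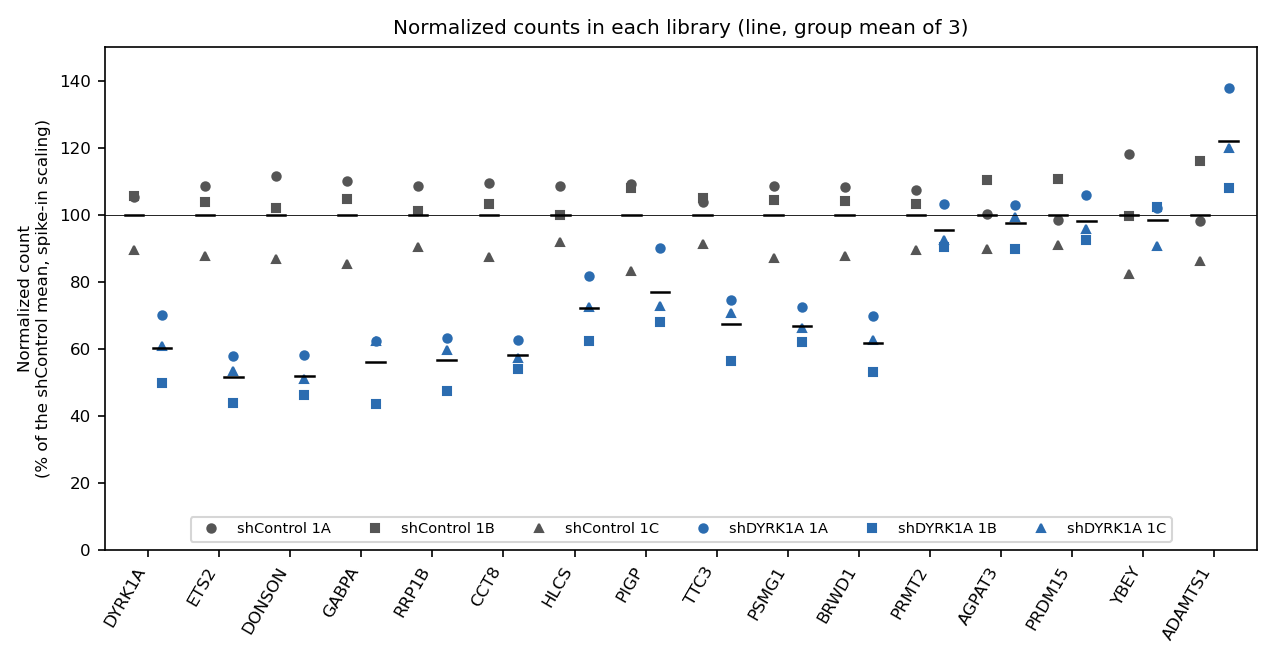
Normalized count in each library as a percentage of the shControl mean (y axis, spike-in scaling) for DYRK1A, the 5 lowest genes, the listed genes nearest on each side (3 each, with ETS2 already among the lowest) and the 5 highest genes (x axis); symbols are libraries, grey for shControl and blue for shDYRK1A, and lines are means of 3. The mean of shDYRK1A was at 51.5% of that of shControl for ETS2, 67.2% for TTC3 and 122% for ADAMTS1, and shDYRK1A 1B was the lowest library for most genes.

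At the other end were 5 genes that did not pass the test on the spike-in scale and rose with TMM scaling. ADAMTS1, a secreted metalloprotease that cleaves proteoglycans (ENSG00000154734, chr21:26835747-26845409, minus strand), had 1493, 1767 and 1313 normalized counts in shControl and 2100, 1646 and 1827 in shDYRK1A. The groups overlapped through shControl 1B and shDYRK1A 1B, and the log2 fold change of 0.29 with an SE of 0.15 did not pass the test (edgeR, adjusted p = 0.0742). With TMM scaling it rose by 0.69 with an SE of 0.07 (edgeR, adjusted p = 6.3e-06), and its CPM was higher in each shDYRK1A library than in each shControl library. YBEY, the human relative of a bacterial endoribonuclease (ENSG00000182362, chr21:46286337-46297751, plus strand), had 886.3, 747.8 and 618.2 normalized counts in shControl and 765.6, 767.1 and 681.2 in shDYRK1A. The shDYRK1A libraries lay within the range of the controls, at -0.02 with an SE of 0.16 (edgeR, adjusted p = 0.898). PRDM15, a zinc finger protein with a PR domain (ENSG00000141956, chr21:41798225-41879482, minus strand), had 732.9, 822.7 and 676.7 normalized counts in shControl and 788.3, 688.4 and 712.5 in shDYRK1A, a log2 fold change of -0.03 with an SE of 0.16 (edgeR, adjusted p = 0.88).

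AGPAT3, an acyltransferase of phospholipid synthesis (ENSG00000160216, chr21:43865186-43986536, plus strand), had 5276, 5813 and 4733 normalized counts in shControl and 5427, 4736 and 5241 in shDYRK1A. PRMT2, an arginine methyltransferase (ENSG00000160310, chr21:46635167-46665124, plus strand), had 4240, 4070 and 3533 in shControl and 4066, 3571 and 3649 in shDYRK1A. In both the groups overlapped, with log2 fold changes of -0.04 and -0.07 and SEs of 0.14 (edgeR, adjusted p = 0.805 and 0.658). With TMM scaling the log2 fold changes were 0.39 for YBEY, 0.37 for PRDM15, 0.37 for AGPAT3 and 0.34 for PRMT2, and edgeR called each of them (adjusted p below 0.05). The calls of ADAMTS1, YBEY, PRDM15, AGPAT3, PRMT2 and TRAPPC10 as higher with TMM scaling were kept in all 6 fits that left out 1 library.

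Which library was left out bore on the counts. The shares of all genes in these fits are not given here. Whether the counts moved more than those of other genes was therefore not tested. Without shControl 1A or shControl 1B, 26 or 27 listed genes were called lower on the spike-in scale, and without shControl 1C or shDYRK1A 1A the fold threshold was passed by 11 or 12. Without shDYRK1A 1B, the library with the fewest counts, 30 were lower and 1, ADAMTS1, was higher. This library held the lowest normalized count of the 6 in 43 of the 53 genes and the lowest CPM in 26. Its normalized counts over all genes also had the lowest sum, at 31230657. A call of lower was kept in all 6 such fits by 23 genes, which included GABPA, CCT8, BACH1, IFNAR1, IFNAR2, GART, DONSON, TTC3, ETS2, PSMG1, BRWD1 and RRP1B. RUNX1, PIGP, PDXK, ADARB1, UBE2G2, MCM3AP, APP and PTTG1IP kept it in 2 of the 6. Each lost it without shControl 1A, shControl 1B, shDYRK1A 1B or shDYRK1A 1C. With no filter on expression RUNX1, PIGP, PDXK and ADARB1 lost it too (edgeR, adjusted p from 0.0527 to 0.0674). With TMM scaling 13 of the 17 lower genes kept the call in all 6, the others being SYNJ1, IFNAR1, IFNAR2 and TTC3, and without shControl 1A or shDYRK1A 1A the number of higher genes fell from 10 to 6.

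Among the 11 transcription factors and chromatin proteins, 9 (81.8%) were lower on the spike-in scale, beside 63.4% of all genes tested, and 3 (27.3%) passed the fold threshold, beside 14.3%. With TMM scaling 4 fell (36.4%, beside 28.6% of all genes) and 2 rose (18.2%, beside 27.3%). The counts below of the other roles, and of the lists of partners and relatives, are to be read against the same 4 shares. BACH1, a repressor of heme and oxidative stress genes, averaged 1995 normalized counts in shControl (SD 168, n = 3) and 1189 in shDYRK1A (SD 249, n = 3), with shDYRK1A 1B the lowest at 902.4. Its groups were apart, and it changed by -0.75 with an SE of 0.15 (edgeR, adjusted p = 4.33e-06). With ETS2, GABPA and BRWD1 it made up the 4 that fell on both scales. The zinc finger protein ZBTB21, the chromatin ATPase MORC3 and PAXBP1 were lower on the spike-in scale, by -0.51, -0.46 and -0.45, and were not called with TMM scaling. RUNX1, a master regulator of blood cell development, was lower by -0.36 (edgeR, adjusted p = 0.0294), with overlapping groups, and had a log2 fold change of 0.05 with TMM scaling (edgeR, adjusted p = 0.535). GABPB1, one of the activating partners of GABPA, had a log2 fold change of -0.40 (edgeR, adjusted p = 0.014) and of 0.00 with TMM scaling, whereas GABPB2 was under the expression filter. The transcript of the DNA-binding subunit therefore had the lower value of the pair on either scale, although that difference was not tested.

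The 3 interferon receptor genes were all lower on the spike-in scale. IFNAR1, a chain of the type I receptor, had 4154, 3825 and 3093 normalized counts in shControl and 2697, 2139 and 2542 in shDYRK1A. IFNAR2, the other chain, had 1749, 1786 and 1490 in shControl and 1244, 927.4 and 1162 in shDYRK1A. The chains had nearly equal values, at -0.59 for each (edgeR, adjusted p = 0.000146 for IFNAR1 and 0.000313 for IFNAR2), and remained lower with TMM scaling at -0.18 and -0.19 (edgeR, adjusted p = 0.0159 and 0.0172). IFNGR2, a chain of the interferon gamma receptor, had log2 fold changes of -0.38 (edgeR, adjusted p = 0.0124) and of 0.02 with TMM scaling (edgeR, adjusted p = 0.714). Of the 8 genes in a list of signalling partners 6 were tested, 5 were lower on the spike-in scale with a median of -0.36, and none was called with TMM scaling. One of the 5, IL10RB (-0.33; edgeR, adjusted p = 0.0352), is a chain of the receptors of interleukin 10 and type III interferon and not of those above. The values ranged from STAT2, a transcription factor activated by these receptors (-0.46), to TYK2, a receptor-bound kinase (-0.29; edgeR, adjusted p = 0.0588).

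All 6 genes of protein folding, ubiquitin and SUMO were lower on the spike-in scale, and CCT8, PSMG1 and TTC3 were lower with TMM scaling too. The deubiquitinase USP16, the modifier SUMO3 and the conjugating enzyme UBE2G2 had log2 fold changes of -0.45, -0.40 and -0.37, and of -0.04, 0.01 and 0.03 with TMM scaling. The other 7 subunits of the chaperonin to which CCT8 belongs were all lower on the spike-in scale, with a median of -0.56. They ranged from TCP1 (-0.67) to CCT3 (-0.29), so that CCT8 at -0.79 had the lowest value of the complex. With TMM scaling 4 of the 7 fell and CCT3 rose by 0.12 (edgeR, adjusted p = 0.044). Of the 4 other factors of proteasome assembly, 3 were lower on the spike-in scale and none was called with TMM scaling, with POMP (-0.57) the lowest and PSMG3 (-0.27) the highest. PSMG1 was called lower on both scales, although its values were near those of POMP. With TMM scaling PSMG1 stood at -0.18 and POMP at -0.15 (edgeR, adjusted p = 0.0642 for POMP), and their difference was not tested.

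Of the nucleolar and ribosome-related genes 5 were tested and 4 were lower on the spike-in scale, with a median of -0.65. After RRP1B the largest changes were those of LTN1, the ligase that marks nascent chains on stalled ribosomes, and URB1, which acts in the assembly of the large subunit. LTN1 had 2697, 2584 and 2131 normalized counts in shControl and 1824, 1206 and 1647 in shDYRK1A, and URB1 had 5182, 4993 and 4172 against 3462, 2487 and 3168. Their groups did not overlap, and the log2 fold changes were -0.66 (edgeR, adjusted p = 2.59e-05) and -0.65 (edgeR, adjusted p = 1.74e-05). RRP1, a relative of RRP1B that lies close to it, had log2 fold changes of -0.41 (edgeR, adjusted p = 0.00879) and of 0.00 with TMM scaling (edgeR, adjusted p = 0.997). The difference between the 2 relatives was not tested.

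PWP2, a subunit of the small subunit processome, had 118.1, 89.65 and 83.73 normalized counts in shControl and 65.22, 50.03 and 37.89 in shDYRK1A, which left it under the filter and untested. Of the words of 100 bases in its transcripts 79.5% also occur in those of FP565260.1, a gene on the same chromosome at chr21:5130871-5154734, to which 588 to 806 reads per library were counted. The counts of the 2 genes together summed, after normalization, to a mean of 880 in shControl (SD 22.9, n = 3) and of 616 in shDYRK1A (SD 36.7, n = 3). Most of the reads counted for the 2 genes were thus assigned to the copy. Where reads that match both genes were placed cannot be told from these counts. Of 7 other names in the list of processome subunits 6 were tested and 5 were lower on the spike-in scale, with a median of -0.63. They ranged from DIEXF (-0.74) to TBL3 (-0.23), and 4 fell with TMM scaling.

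Of the 11 enzymes and transporters of metabolism and redox balance, 8 (72.7%, beside 63.4% of all genes tested) were lower on the spike-in scale, with a median of -0.38. With TMM scaling 2 fell and 2 rose (18.2% each, beside 28.6% and 27.3%). The 2 that fell were CRYZL1, a quinone oxidoreductase-like protein, and GART, which catalyses several steps of purine synthesis. GART had 9916, 9861 and 8436 normalized counts in shControl and 7030, 5659 and 6454 in shDYRK1A, a log2 fold change of -0.56 with an SE of 0.13 (edgeR, adjusted p = 0.000132) and of -0.16 with TMM scaling (edgeR, adjusted p = 0.00472). CRYZL1 changed by -0.60 (edgeR, adjusted p = 0.000214) and by -0.19 with TMM scaling (edgeR, adjusted p = 0.00954). The other enzymes of purine synthesis moved in the same direction: of 5 listed 4 were tested, and all 4 were lower on both scales, with a median of -0.69. PPAT, which catalyses the committed step, was the lowest at -0.91 (edgeR, adjusted p = 3.83e-08), and PFAS was the highest at -0.60.

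SOD1 was the most abundant of the listed genes per length of exon and was called lower on the spike-in scale only. It had 23124, 22025 and 18524 normalized counts in shControl and 17505, 16648 and 15734 in shDYRK1A. The groups did not overlap, with a log2 fold change of -0.35 (edgeR, adjusted p = 0.0131) and of 0.06 with TMM scaling (edgeR, adjusted p = 0.414). SOD2, the mitochondrial enzyme, and CCS, the chaperone that loads SOD1 with copper, were not called on the spike-in scale, at -0.07 and -0.20, and rose with TMM scaling by 0.33 and 0.20. The reductases CBR1 and CBR3 had log2 fold changes of -0.51 (edgeR, adjusted p = 0.00123) and -0.29 (edgeR, adjusted p = 0.0706). With TMM scaling they stood at -0.09 and 0.11, and neither was called. The pyridoxal kinase PDXK and the folate carrier SLC19A1 were lower on the spike-in scale at -0.32 and -0.43. With TMM scaling they stood at 0.08 and -0.02, and neither was called. POFUT2, which adds fucose to secreted proteins, was not called on the spike-in scale at -0.25 (edgeR, adjusted p = 0.103).

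The 4 secreted, amyloid-related or proteolytic genes had the highest median of any role, -0.26, with 2 of 4 lower. APP had 32227, 33888 and 27991 normalized counts in shControl and 28681, 22527 and 26482 in shDYRK1A. The groups overlapped through shControl 1C and shDYRK1A 1A, and the log2 fold change of -0.28 with an SE of 0.13 was near the limit of the test (edgeR, adjusted p = 0.0478). With TMM scaling APP rose by 0.12 (edgeR, adjusted p = 0.0352), so that its sign turned with the scale. Neither call was stable: the lower call was lost without shControl 1A, shControl 1B, shDYRK1A 1B or shDYRK1A 1C (edgeR, adjusted p up to 0.28), with filterByExpr (0.0596) and with no filter (0.108). The higher call was kept in 1 of the 6 fits that left out a library, the one without shDYRK1A 1B. BACE2, a protease that cleaves APP within the amyloid sequence, was lower by -0.48 (edgeR, adjusted p = 0.00167), and CSTB, an inhibitor of cysteine cathepsins, was not called at -0.25 (edgeR, adjusted p = 0.103). With TMM scaling BACE2 and CSTB stood at -0.08 and 0.16, and neither was called. Of 11 relatives of APP and components of its processing, 6 (54.5%, beside 63.4% of all genes tested) were lower on the spike-in scale. None was called higher, beside 1.08% of all genes. APLP1 was the lowest (-0.57) and NCSTN, a subunit of the gamma secretase, the highest (0.28; edgeR, adjusted p = 0.0609). With TMM scaling 2 of the 11 fell (18.2%, beside 28.6% of all genes) and 4 rose (36.4%, beside 27.3%).

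In membrane traffic, adhesion and signalling 6 of 8 genes (75%, beside 63.4% of all genes tested) were lower, and with TMM scaling 2 fell (25%, beside 28.6%) and 3 rose (37.5%, beside 27.3%). SYNJ1, a phosphatase of synaptic vesicle recycling, had 1058, 1151 and 899.6 normalized counts in shControl and 749.6, 552.2 and 705.9 in shDYRK1A, and C2CD2, a C2 domain protein, had 3490, 3511 and 2944 against 2392, 1933 and 2143. Both were lower on both scales, at -0.63 (edgeR, adjusted p = 0.000208) and -0.62 (edgeR, adjusted p = 6.43e-05), and with TMM scaling at -0.23 and -0.22. The exchange factor TIAM1, the endocytic scaffold ITSN1 and DIP2A were lower on the spike-in scale alone, at -0.55, -0.49 and -0.48. PTTG1IP turned like APP, with -0.30 on the spike-in scale (edgeR, adjusted p = 0.0381) and 0.11 with TMM scaling (edgeR, adjusted p = 0.0366). Its lower call was lost without the same 4 libraries as that of APP (edgeR, adjusted p up to 0.193) and with no filter (0.0839), and its higher call was again kept only without shDYRK1A 1B. TRAPPC10, a subunit of the TRAPPII tethering complex, was not called at -0.09 (edgeR, adjusted p = 0.582) and rose by 0.30 with TMM scaling (edgeR, adjusted p = 0.00622). The other subunits of the complex spread to both sides of it. Of 9 listed 7 were tested, and 1, TRAPPC6B (-0.41), was lower, the median being -0.22 and the highest value that of TRAPPC9 (0.32; edgeR, adjusted p = 0.0628). With TMM scaling none of the 7 fell and 4 rose.

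The 5 genes of RNA processing, replication and the centrosome were all lower on the spike-in scale, and DONSON alone was called with TMM scaling. The splicing cofactor SON, the export factor MCM3AP, the editing enzyme ADARB1 and the centrosomal scaffold PCNT lay between -0.40 and -0.34. With TMM scaling the same 4 genes lay between 0.00 and 0.06. Their lower calls were not stable when 1 library was left out. SON and PCNT kept the call in 3 of the 6 fits, and MCM3AP and ADARB1 in 2.

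**Figure D3:**
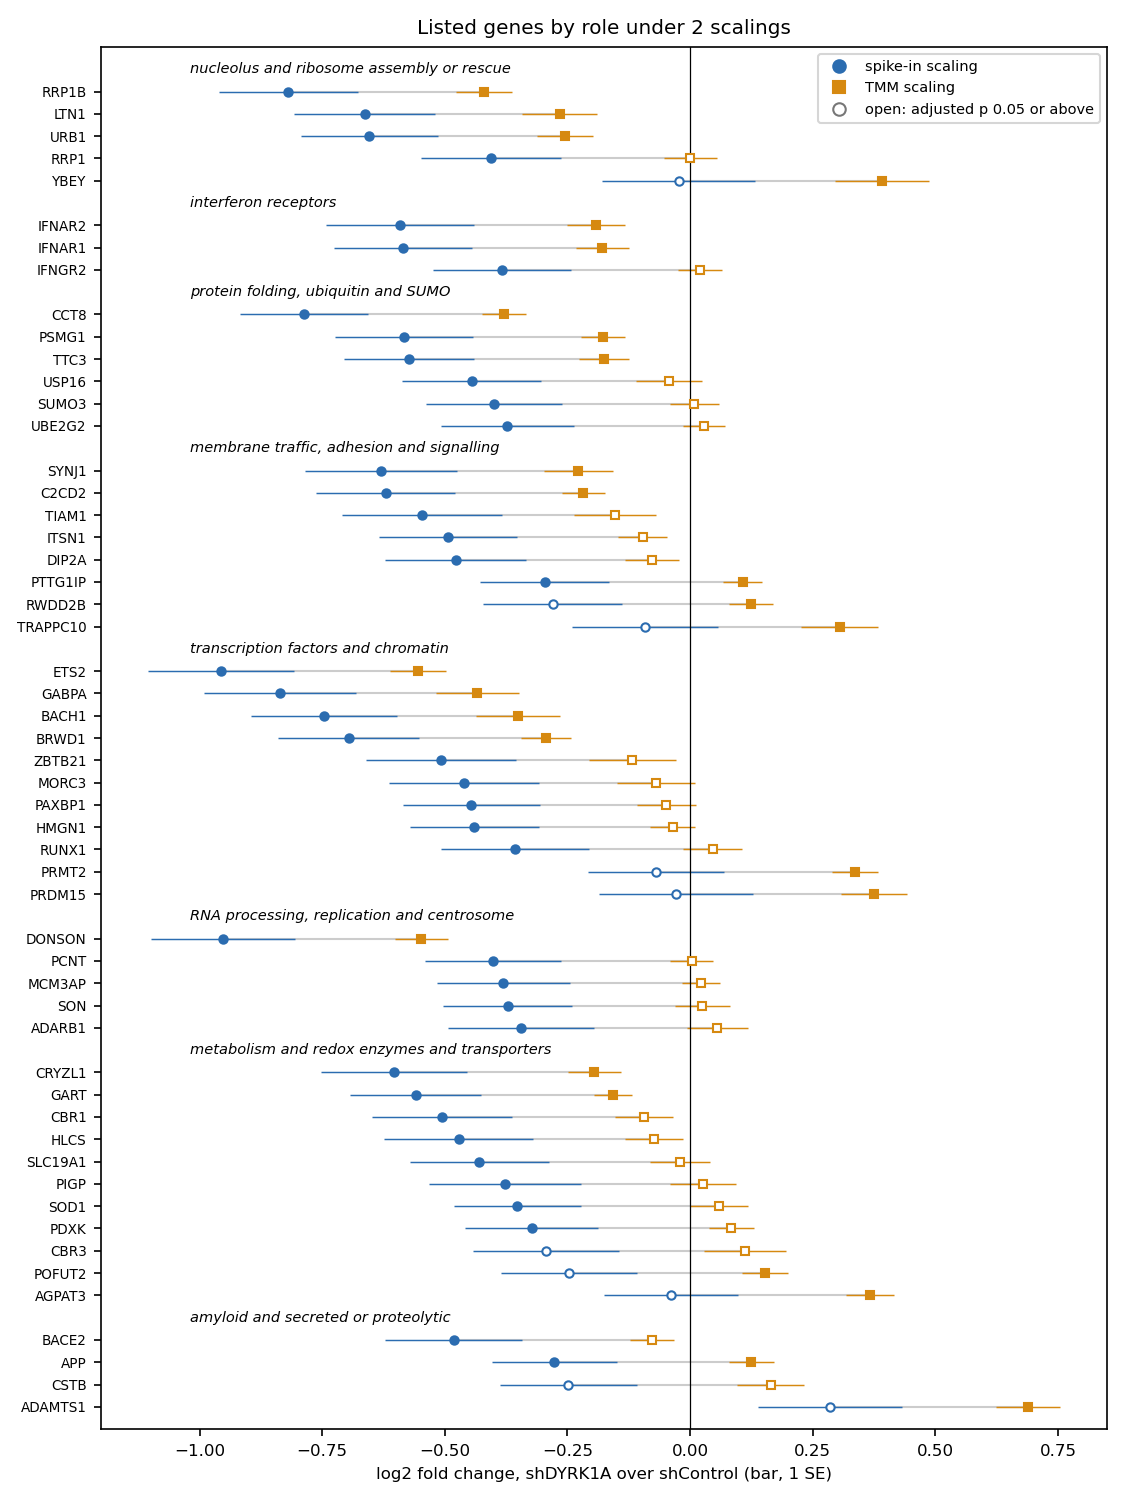
Log2 fold changes (x axis, shDYRK1A over shControl, bars 1 SE) of the 53 tested genes (y axis, grouped by role) with spike-in scaling (blue circles) and TMM scaling (orange squares), filled where the adjusted p was below 0.05. On the spike-in scale 43 genes were called, all lower, and with TMM scaling 17 were lower and 10 higher.

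The stretches of the chromosome are described here by the listed genes alone, without its other tested genes. They differed in the counts and medians of those listed genes. Within 2 Mb of DYRK1A 9 of 10 listed genes (90.0%, beside 63.4% of all genes tested) were lower on the spike-in scale, with a median of -0.49. Between 2 and 10 Mb on the centromere side 18 of 19 (94.7%) were lower, with a median of -0.56. Beyond 6 Mb on the telomere side 11 of 17 (64.7%) were lower, a share near that of all genes, with a median of -0.34. With TMM scaling 10 fell (52.6%, beside 28.6% of all genes) and 1 rose (5.26%, beside 27.3%) in that centromeric stretch, whereas in the telomeric one 1 fell (5.88%) and 6 rose (35.3%). The differences between the stretches were not tested. The 4 genes from 2 to 6 Mb on the telomere side had a median of -0.50 and the 3 genes beyond 10 Mb on the centromere side one of -0.28.

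The GC content of the transcripts of the listed genes rose along the same axis. Its median was 44.3% in the 19 listed genes from 2 to 10 Mb on the centromere side. In the 17 listed genes beyond 6 Mb on the telomere side it was 53.2%. Among all genes tested, the lowest decile of GC content stood at a median of -0.55 on the log2 scale and the highest at -0.27. When the median of the same decile of GC content was subtracted from each gene, the telomeric stretch stood at 0.01 and the centromeric stretch at -0.12. The gap between these stretches was thus smaller beside genes of like composition, and the part of GC content in it was not tested further.

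**Figure D4:**
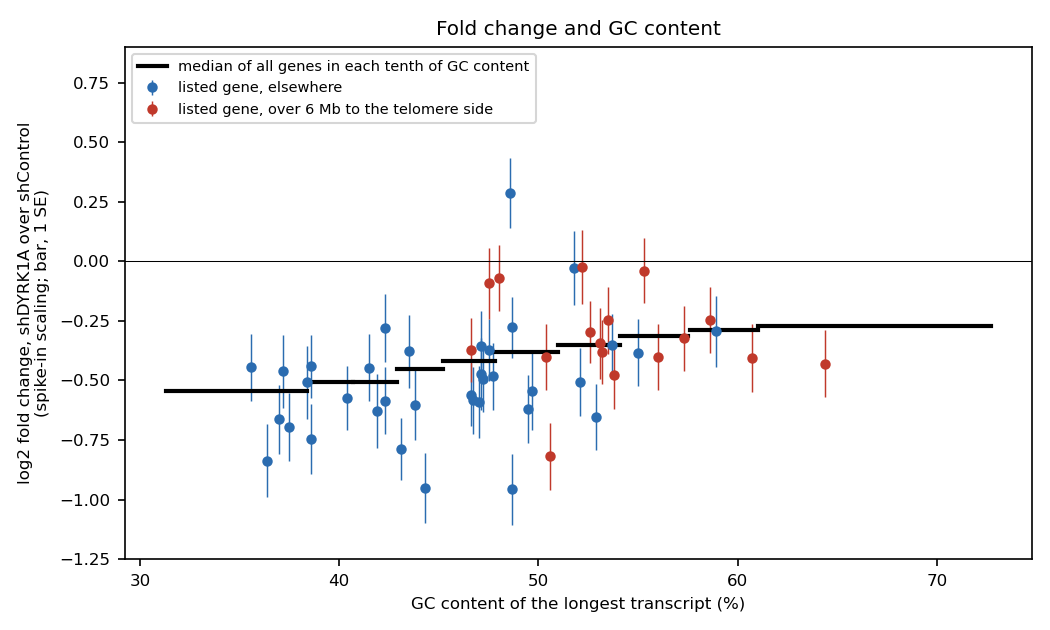
Log2 fold change on the spike-in scale (y axis, bars 1 SE) of the 53 tested genes against the GC content of their longest transcript (x axis, %), in red beyond 6 Mb on the telomere side of DYRK1A and in blue elsewhere; black lines are medians of all genes in each decile of GC content. The black lines climb from -0.55 to -0.27, and ETS2, DONSON and RRP1B lie below the line at their GC content while ADAMTS1 lies above it.

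Pairs of genes that share a start region also differed in their values. MCM3AP and YBEY start 40 bp apart on opposite strands, and their log2 fold changes were -0.38 with an SE of 0.14 and -0.02 with an SE of 0.16. PIGP and TTC3, 56 bp apart, stood at -0.38 and -0.57, and GART and SON, 873 bp apart, at -0.56 and -0.37. The differences within the pairs were not tested.

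By its median, chromosome 21 as a whole lay within the range of the other chromosomes. The median of its 101 tested genes was -0.40, which ranked 15 of 23 chromosomes from the lowest, the range being from -0.47 to -0.31. Of the 101, 70 (69.3%, beside 63.4% of all genes tested) were called lower, a share that ranked 7 from the highest. The 47 tested genes of chromosome 21 that were neither listed nor DYRK1A had a median of -0.36, with 26 lower (55.3%). Of these 47, 1 was higher (2.13%, beside 1.08% of all genes) and 8 were past the lower fold threshold (17.0%, beside 14.3%). The listed genes took 0.616% ± 0.000357 (SD, n = 3) of the human gene counts in shControl and 0.615% ± 0.0149 (SD, n = 3) in shDYRK1A, where 1A, 1B and 1C held 0.624%, 0.598% and 0.623%. Against the other human transcripts, the summed share of these genes was thus lower in shDYRK1A 1B and higher in shDYRK1A 1A and 1C than in any control, so that the groups overlapped.

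**Figure D5:**
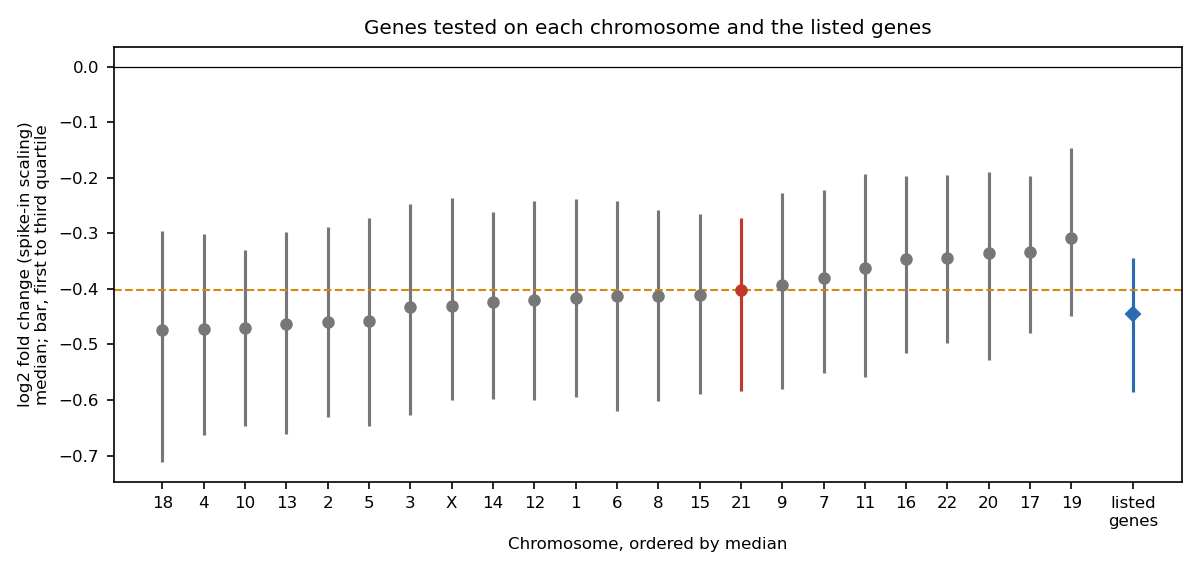
Median log2 fold change on the spike-in scale (y axis, points, with bars from the first to the third quartile) of the genes tested on each chromosome, ordered by median (x axis), and of the 53 listed genes (blue diamond); the dashed line is the median of all genes tested. Chromosome 21 (red, -0.40) lies on the dashed line, and the listed genes (-0.45) lie slightly below it.

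The listed genes spanned a wide range of expression in shControl. Per kilobase of exon, SOD1 had 10510 ± 1190 normalized counts (SD, n = 3), CCT8 7561 ± 861, APP 4967 ± 481, PTTG1IP 4789 ± 475 and HMGN1 2714 ± 326. The gap between APP and PTTG1IP was smaller than either SD, whereas the steps from SOD1 to CCT8 and from there to APP exceeded the SDs. The SDs are over the same 3 libraries for each gene, and the differences between genes were not tested. Of the genes tested the lowest were RUNX1 at 98.2 ± 12.3, TIAM1 at 74.4 ± 3.09 and PRDM15 at 57.2 ± 5.66 on the same scale, and the exon length here is that of all annotated transcripts merged. S100B, a calcium-binding protein of astrocytes at chr21:46598962-46605208, was not in the normalized table, and its raw count was 0 in each of the 6 libraries, which allows up to 0.0712 to 0.089 CPM at a limit of 3 counts.

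In 9 of the 54 genes over 5% of the words of 100 bases in their transcripts also occur, on either strand, in transcripts of another gene, and their counts are less certain. These are PWP2 (79.5%), IFNAR2 (72.4%), TRAPPC10 (40.8%), CBR3 (28.0%), CBR1 (14.2%), GABPA (12.0%), SLC19A1 (10.8%), MCM3AP (8.40%) and URB1 (5.69%). The gene with most words in common with IFNAR2, a readthrough transcript, had 0 counts in all 6 libraries. It starts at the same base and strand as IFNAR2, and how reads that overlap both were counted is not given. The 0 therefore does not show that the count of IFNAR2 is complete. GABPAP, a processed copy of GABPA, had 1 to 6 counts. For TRAPPC10 the corresponding gene, FP565260.6, had 86 to 156 counts per library. With those counts added TRAPPC10 averaged 1633 normalized counts in shControl (SD 109, n = 3) and 1549 in shDYRK1A (SD 226, n = 3).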

How the data were processed

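Messenger RNA of T98G cells was measured in 6 libraries, 3 per group, with groups and letters from the sample titles. The authors deposited raw counts per gene and library, for 58174 identifiers. They also deposited a normalized signal for 23026 genes, each library's counts divided by 1 constant derived from fly reads. The kit was stranded, and the strand setting of the counting is not given in the sources used here. The submitters' processing notes name STAR, DESeq2, hg38 and dm3. Reads in the 4 summary lines of each count table were left out, of which the unmapped made up 8.44 to 15.65% of all reads. A further deposited table, the authors' DESeq2 comparison with fold changes and p-values, was not used. Columns of per-sample values that belong to no sample numbered 0. Coordinates equalled GENCODE v29 (GRCh38) for 95.83% of the genes.

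Genes with a mean normalized count above 10 CPM were kept, which left 9697. Raw counts were fitted with edgeR 4.0.16 (R 4.3.3, glmQLFit and glmQLFTest, robust) with the fly constants as size factors, with Benjamini-Hochberg adjustment over all genes tested. Calls needed an adjusted p below 0.05 and, for the fold threshold, a log2 fold change beyond 0.7 as well. The fits were repeated with TMM or median-of-ratios scaling, with DESeq2 1.42.0, with the filterByExpr filter or with all genes above 1 count, with the letter of the replicate as a block, and without each library in turn. The GC comparison and the TMM fits with a block or with a library left out were added after seeing the data. The planned correlation with distance from DYRK1A is not reported here. The fit was tested on simulated counts. Lists, roles and the genes named were chosen with earlier results of these data known. Named were DYRK1A, genes called with one sign on both scales, any gene with a positive fold change, the 3 nearest on each side, the extremes of each list, and values per library for the 5 lowest, the 5 highest and the neighbours; further genes are named by role.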

Additional observations from a re-analysis of the deposited data

How the results depend on the processing

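The count of listed genes called lower on the spike-in scale (43), of those past the fold threshold (6) and the median (-0.45) kept their direction and stayed within 1.5 times under the DESeq2 Wald test (45 and 6), filterByExpr (43 and 7, over 17623 genes) and no filter beyond 1 count (38 and 7, over 32001 genes). Scaling by the human genes moved them. With TMM and with median-of-ratios scaling alike 17 were lower, 10 were higher and 0 passed the fold threshold, and the median was -0.0431 and -0.0399. The shares of all genes under DESeq2, filterByExpr, no filter and median-of-ratios scaling are not given here. Whether the listed genes differed from all genes in these fits was not tested. DYRK1A stayed lower in all 12 alternatives, between -0.85 and -0.33.

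The sign turned from negative to positive in 23 genes, with values under TMM and under median-of-ratios scaling of 0.1246 and 0.1278 for APP, 0.125 and 0.1281 for RWDD2B, 0.0596 and 0.0627 for SOD1, 0.0211 and 0.0242 for IFNGR2, 0.0251 and 0.0283 for SON, 0.0465 and 0.0497 for RUNX1, 0.1115 and 0.1145 for CBR3, 0.0262 and 0.0295 for PIGP, 0.3746 and 0.3777 for PRDM15, 0.0842 and 0.0873 for PDXK, 0.1642 and 0.1674 for CSTB, 0.0003 and 0.0033 for RRP1, 0.3667 and 0.3699 for AGPAT3, 0.3049 and 0.308 for TRAPPC10, 0.0282 and 0.0314 for UBE2G2, 0.0088 and 0.0119 for SUMO3, 0.1079 and 0.111 for PTTG1IP, 0.0559 and 0.059 for ADARB1, 0.1525 and 0.1556 for POFUT2, 0.0222 and 0.0253 for MCM3AP, 0.3912 and 0.3943 for YBEY, 0.0032 and 0.0064 for PCNT, and 0.336 and 0.3391 for PRMT2. By construction both scalings set the median of all genes near 0.

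Leaving out 1 library gave 26 to 47 lower genes, 0 to 1 higher, 4 to 12 past the fold threshold and a median of -0.54 to -0.37. The shares of all genes in these fits are not given here. The lowest counts of lower genes came without shControl 1A (26) or shControl 1B (27), and the largest fold-threshold counts without shControl 1C (11) or shDYRK1A 1A (12). Single genes turned positive without shControl 1A (YBEY 0.1122), shControl 1B (PRDM15 0.0506, AGPAT3 0.0373), shDYRK1A 1B (PRDM15 0.0124, AGPAT3 0.0165, TRAPPC10 0.0381) or shDYRK1A 1C (YBEY 0.0311), none of them called. The ranges of these genes without 1 library were -0.0926 to 0.0506 for PRDM15, -0.1108 to 0.0373 for AGPAT3, -0.1747 to 0.0381 for TRAPPC10 and -0.1468 to 0.1122 for YBEY. With TMM scaling the same omissions gave 15 to 18 lower and 6 to 11 higher genes, and the 6 came without shControl 1A or shDYRK1A 1A. The difference in the share of human counts taken by the listed genes (-0.0015 percentage points) was -0.0062 to 0.0071 without 1 library and 0.0017 over nuclear genes only, with a change of sign without shDYRK1A 1B. The causes of these movements were not tested beyond the construction of each alternative.

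The letters were not taken to pair the libraries, and the labels do not say whether they do. The deviations of same-letter libraries correlated at 0.151, 0.0728 and 0.128, and those of different letters at -0.0937 to -0.0143. Each shDYRK1A library thus correlated best with its own letter, and a pairing is not excluded. A fit with the letter as a replicate block gave 43 lower, 0 higher, 6 past the fold threshold, a median of -0.45 and -0.74 for DYRK1A. With TMM scaling as well it gave 17 lower and 9 higher. PWP2 was the one listed gene in the table under the filter, and most of the reads counted for it and its copy were assigned to the copy. The effect of depth was not tested.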
